A study of Homo sapiens with 7 samples.

Results

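RUNX proteins switch genes off or on through partner proteins, and the data described here are the RUNX2 binding sites and the H3K27ac at 10 genes that encode such partners. These were TLE1, TLE3, TLE4, TLE5, HDAC1, SIN3A and NCOR1 on the repressing side and EP300, CREBBP and KAT6A on the activating side. They were chosen by name, and all 10 were found among the 19974 protein-coding genes of chromosomes 1 to 22 and X. For each gene the window was its RefSeq span on hg38 plus 25 kb on each side. Together the windows held 65 of the 42911 RUNX2 peaks of KARPAS-45 and 33 of the 21027 of PER-117, and 143 and 66 H3K27ac regions. KARPAS-45, grown with 20% serum, and PER-117, grown with 10%, are lines of T-cell acute lymphoblastic leukemia (T-ALL), the former with a KMT2A rearrangement, and the labels name no treatment. Chromatin was precipitated with an antibody to RUNX2 or to acetylated lysine 27 of histone H3 (H3K27ac, the mark of active promoters and enhancers), 1 library per line and antibody. Without replicates the lines could not be tested against each other, and each difference below is one between single libraries. A site that is missing from a list was not called there, at a depth that is not known.

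RUNX proteins bind DNA together with CBFB and have no enzyme activity of their own on chromatin. A short tail of the protein holds Groucho-type corepressors of the TLE family, and other segments have been linked to SIN3A, NCOR1 and histone deacetylases, which remove acetyl groups. EP300 and CREBBP, the acetyltransferases that write H3K27ac, and KAT6A, a lysine acetyltransferase also known as MOZ, act with RUNX proteins as coactivators in blood cells. RUNX2 is best known from bone, where the same partners set whether its targets are repressed or activated.

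A RUNX2 peak lay within 1 kb of an end of the gene span at all 10 genes for KARPAS-45 and at 7 for PER-117. Over all protein-coding genes the corresponding shares were 48.3% and 32.5%, and 29.2% for both lines together, where 7 of the 10 genes were bound. Among genes with an acetylated gene end the shares were 75.7% and 57.1%. Every one of the 10 windows held RUNX2 and H3K27ac in both lines, against 79.5% and 64.2% of all windows for RUNX2 and 78.8% and 75.4% for H3K27ac, in KARPAS-45 and PER-117. Inside the span a RUNX2 summit was present at 9 genes and 6 genes, against 46.8% and 34.2% of all genes. The windows of these genes are long, with a median of 146.7 kb against 74.2 kb for all genes. Missing a gene-end peak in PER-117 were TLE5, NCOR1 and CREBBP. All 10 genes had H3K27ac at a gene end in both lines, against 61.0% of all genes in KARPAS-45, 55.5% in PER-117 and 51.9% in both. The lists differ in length, and at equal length the order of the lines turned: with the KARPAS-45 list shortened to its 21027 strongest peaks, 6 genes were bound at an end and 26 peaks lay in the windows, against 7 and 33 in PER-117. Of all genes 27.6% were bound at an end on the shortened list. At a −log10 q of 10 or more, gene-end RUNX2 was left at 6 (KARPAS-45) and 3 (PER-117) of the 10 genes, and at 29.9% and 17.2% of all genes.

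The promoters with a RUNX2 peak over them in both lines are shown first, since they are the sites where binding at a start can be read against sequence. They belong to HDAC1, TLE4, TLE3 and, at the inner of its 2 annotated starts, SIN3A. RefSeq (GRCh38.p14) gives 16 promoter windows for 9 of the 10 genes. Of these, 9 overlapped a KARPAS-45 peak of RUNX2 and 4 a PER-117 one. Over all 34961 RefSeq promoters the shares were 29.5% and 17.4%, against 56.25% and 25% here. Each sequence is the 250 bases before the start, 5′ to 3′ on the strand of the gene. Capitals mark the RUNX core words TGTGGT and TGCGGT, or ACCACA and ACCGCA where the word lies on the other strand.
HDAC1, chr1:32291833-32292082, plus strand: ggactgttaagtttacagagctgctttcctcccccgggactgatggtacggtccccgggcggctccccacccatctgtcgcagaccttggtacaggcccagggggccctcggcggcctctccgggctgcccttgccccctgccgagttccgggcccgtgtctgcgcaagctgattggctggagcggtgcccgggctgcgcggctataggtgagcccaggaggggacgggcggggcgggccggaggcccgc
TLE4, chr9:79571715-79571964, plus strand: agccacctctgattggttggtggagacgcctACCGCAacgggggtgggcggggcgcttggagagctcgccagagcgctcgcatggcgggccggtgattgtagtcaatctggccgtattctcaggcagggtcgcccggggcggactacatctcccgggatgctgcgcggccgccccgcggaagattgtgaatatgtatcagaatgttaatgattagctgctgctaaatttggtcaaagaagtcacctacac
TLE3, chr15:70097918-70098167, minus strand: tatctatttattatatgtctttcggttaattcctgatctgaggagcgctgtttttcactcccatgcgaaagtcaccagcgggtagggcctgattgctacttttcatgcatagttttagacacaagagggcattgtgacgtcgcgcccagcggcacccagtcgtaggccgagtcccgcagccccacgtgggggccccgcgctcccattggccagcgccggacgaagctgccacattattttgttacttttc
SIN3A, chr15:75451691-75451940, minus strand: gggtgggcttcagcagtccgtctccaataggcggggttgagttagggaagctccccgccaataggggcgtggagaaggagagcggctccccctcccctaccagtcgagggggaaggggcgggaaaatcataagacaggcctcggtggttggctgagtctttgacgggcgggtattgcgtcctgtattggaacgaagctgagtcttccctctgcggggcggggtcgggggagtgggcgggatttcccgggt
The TLE4 sequence holds 1 core word, beginning 219 bases before the start, and the RUNX2 summits had fold enrichments of 9.05 (KARPAS-45) and 5.72 (PER-117), at positions -173 and -135 from the start. In the HDAC1, TLE3 and SIN3A sequences these words do not occur. At HDAC1 the KARPAS-45 peak over the promoter window, with 4.38, had its summit at -167, while the PER-117 peak had its summit 576 bases inside the gene and reached only the bases after the start. At the SIN3A sequence the peaks had 10.4 and 5.84 and summits at -426 and 298. A core word was present in 16.3% of all 34961 RefSeq promoters over the same 250 bases, and in 19.6% and 23.1% of those with a RUNX2 peak in KARPAS-45 and PER-117. Among the 16 promoter windows of these genes, 4 held a word. The inner promoter window of TLE4, overlapped by a KARPAS-45 peak and by no PER-117 peak, although a PER-117 peak of 4.38 lies further inside the gene and overlaps the KARPAS-45 peak, held one that begins 81 bases before its start.

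**Figure D1:**
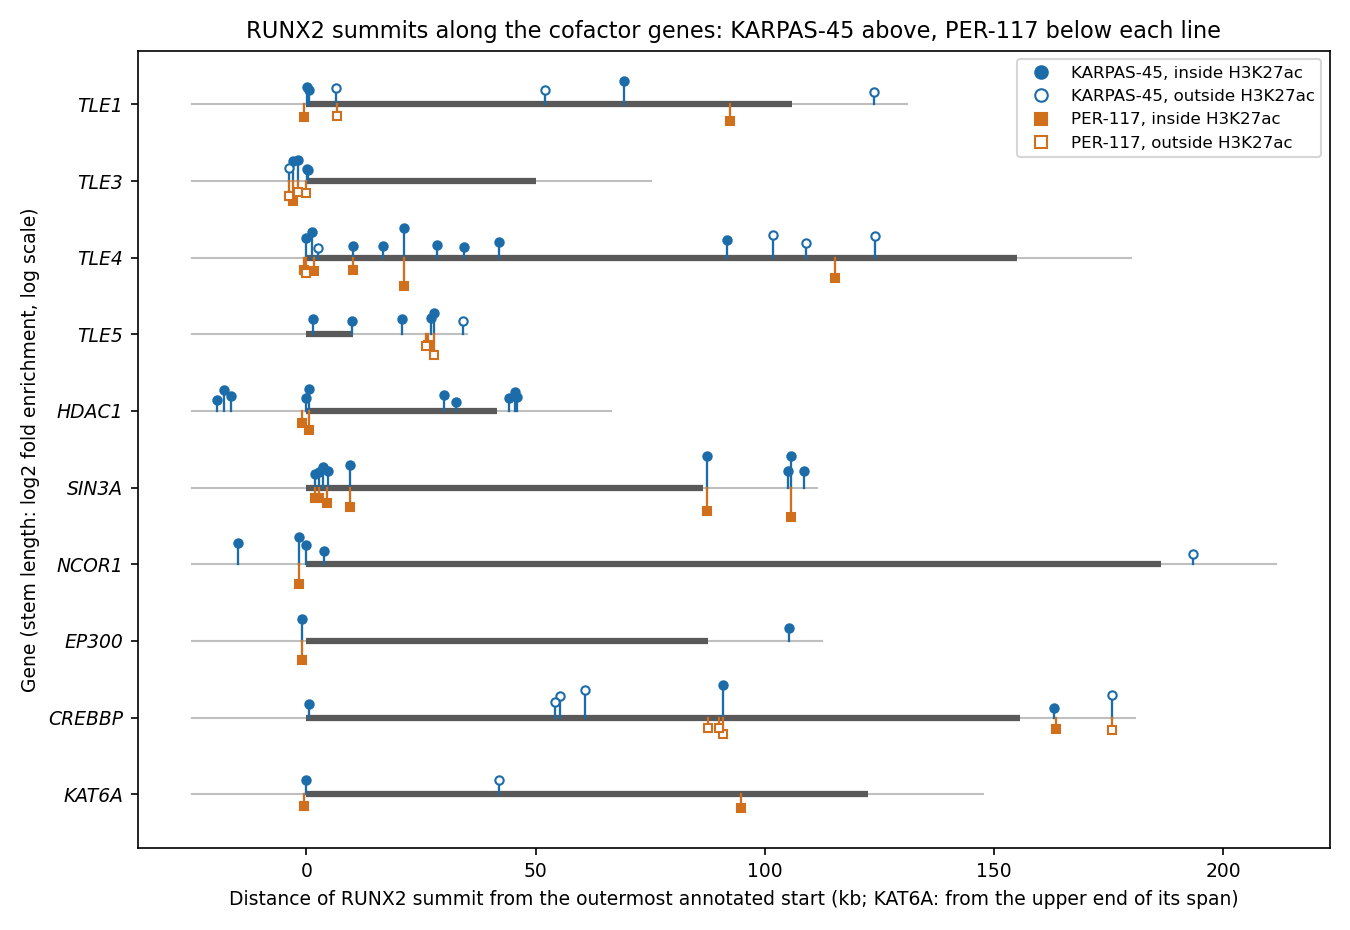
RUNX2 summits along each gene, as the distance in kb from the outermost annotated start (for KAT6A, from the upper end of its span), with KARPAS-45 stems pointing up and PER-117 stems pointing down. The dark bar is the gene span and the thin line the 25 kb flanks, stem length is the log2 fold enrichment, and filled symbols lie inside H3K27ac of the same line. TLE3 peaks crowd at the start in both lines, while EP300 holds no plotted summit inside the gene.

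The TLE genes encode Groucho-type corepressors that RUNX proteins bind directly. TLE4 (chromosome 9, 79571965 to 79726882, plus strand) held 13 peaks (KARPAS-45) and 6 (PER-117), the most of the 10 genes, shared with SIN3A for PER-117. Its strongest peak lay about 21 kb inside the gene in both lines, with a fold enrichment of 27.4 (KARPAS-45) or 23.6 (PER-117) and summits 9 bp apart. In KARPAS-45 that summit lay in an H3K27ac region of 10.2 kb and in PER-117 in one of 4.79 kb. Fold enrichment is given by the authors for each peak and serves here only to order peaks of one list, in which 96.7% of KARPAS-45 and 98.2% of PER-117 peaks were weaker. The KARPAS-45 peaks that followed had 18.1, at the inner start, and 13.2, far inside the gene and outside H3K27ac. In PER-117 the next was 9.33, at 115366 bp from the start, where KARPAS-45 had neither a peak nor H3K27ac, and then 5.72, just before the outer start. Of the 13 KARPAS-45 peaks 4 overlapped a PER-117 peak, and 9 lay inside H3K27ac.

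TLE3 (chromosome 15, 70047790 to 70097917, minus strand) showed a compact pattern. Its peaks, 5 for KARPAS-45 and 4 for PER-117, all lay between 3860 bp before and 445 bp after the outermost start, in a window of 100.1 kb. Each of the 4 PER-117 peaks had a partner in KARPAS-45. The strongest had 10.5 in KARPAS-45, at 1807 bp before the start, and 9.73 in PER-117, at 2878 bp before it. At the start itself the peaks were weak, 3.80 and 3.84. In KARPAS-45 1 H3K27ac region of 9.38 kb covered the start and 4 of the 5 summits, whereas in PER-117 a single summit, the strongest, lay inside H3K27ac.

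TLE1 (chromosome 9, 81583683 to 81689547, minus strand) had peaks at its start in both lines, but they did not overlap. In KARPAS-45 the start summits lay 39 and 551 bp inside the gene, with 6.96 and 4.88, and in PER-117 the summit lay 452 bp before it, with 4.25. The strongest of the 6 KARPAS-45 peaks had 13.5, at 69352 bp from the start, inside an H3K27ac region with a low listed −log10 q (0.689). The third had 6.005, at 6537 bp. That last site was the only one of TLE1 found in both lines (3.75 in PER-117), and it lay outside H3K27ac in both. In PER-117 the strongest of 3 peaks had 6.14, at 92292 bp from the start.

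TLE5 (chromosome 19, 3052910 to 3062966, minus strand) encodes a short family member without the C-terminal repeats of the others, known as AES, that can counteract them. Its span is the shortest here, 10.1 kb. In KARPAS-45 it held 2 RUNX2 peaks, 4.22 at its far end and 5.61 at 1506 bp inside the start, and in PER-117 none. The flank beyond its far end reaches into TLE2, another corepressor of the family, where 4 of the 6 KARPAS-45 peaks and all 3 PER-117 peaks lay. The strongest of these had 11.0 (KARPAS-45) and 10.5 (PER-117) and overlapped each other, and the next in KARPAS-45 had 6.06 and 5.87. TLE2 itself carried no RUNX2 peak at a gene end in either line. The start of TLE5 was nevertheless acetylated in both lines, and in PER-117 its region had a fold enrichment of 13.3.

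HDAC1, SIN3A and NCOR1 are parts of deacetylase complexes: HDAC1 is the enzyme, SIN3A a scaffold that carries it, and NCOR1 the scaffold of a complex built around HDAC3. HDAC1 (chromosome 1, 32292083 to 32333626, plus strand) held 10 peaks for KARPAS-45 and 2 for PER-117, the widest gap in number among these genes, and 6 of the KARPAS-45 peaks were nearest to another gene. Of these, 3 peaks lay in LCK, a T-cell kinase gene upstream of HDAC1, with up to 9.99, and 3 lay at MARCKSL1 beyond the other end, with up to 8.81. No PER-117 peak lay at either in this window. LCK was bound at a gene end in PER-117 outside the window, and an H3K27ac region across the window edge held 1 RUNX2 summit outside it. Inside HDAC1 the count was 3 and 1. The strongest peak of both lines lay at the same place, 589 and 576 bp inside the gene, with 11.4 (KARPAS-45) and 8.61 (PER-117), and it was acetylated in both.

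SIN3A (chromosome 15, 75369379 to 75455815, minus strand) had the most peaks found in both lines. All 6 PER-117 peaks and 6 of the 9 KARPAS-45 peaks had a partner in the other line, and every peak of both lines lay inside H3K27ac. The strongest in KARPAS-45 had 34.6, and its PER-117 partner 14.3, with summits 7 bp apart. It lay beyond the far end of SIN3A and 151 bp from one end of MAN2C1, a mannosidase gene, so the gene-end call of SIN3A rests on a site that is nearer to another gene. The next, with 34.2 and 26.5, lay inside NEIL1, a DNA repair gene. Within SIN3A the strongest peak had 12.3 and 8.51, about 9.5 kb inside the outer start, and 4 further KARPAS-45 peaks and 3 PER-117 peaks lay between the outer start and that site. With only peaks whose nearest gene end belongs to the named gene, the count of genes bound at an end was 9 for KARPAS-45 and 6 for PER-117, against 42.3% and 27.6% of all genes.

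NCOR1 (chromosome 17, 16029157 to 16215534, minus strand) has the longest span, 186.4 kb, with 5 RUNX2 peaks for KARPAS-45 and 1 for PER-117. A KARPAS-45 peak of 8.87 lay on the start, 40 bp before it, and no PER-117 peak overlapped it. The strongest in KARPAS-45, with 21.4, lay at -1589 from the start, and the only PER-117 peak, with 8.84, overlapped it with a summit 13 bp away. That site is 87 bp from the near end of PIGL, the neighbouring gene, and it lay in each line inside the H3K27ac region that also covers the start of NCOR1. With a window of 2.5 kb around gene ends NCOR1 counted as bound in PER-117 as well, which made 8 genes there and 10 in KARPAS-45, against 37.1% and 53.9% of all genes. By summit, 1 KARPAS-45 peak, of 4.24, lay inside the gene, and none in PER-117.

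EP300 and CREBBP encode closely related acetyltransferases, but their RUNX2 patterns differed. By the summit kept for each peak, EP300 (chromosome 22, 41092592 to 41180077, plus strand) held none inside the gene in either line. Its strongest peak lay 980 bp before the start in KARPAS-45, with 11.2, and 1000 bp before it in PER-117, with 8.84. Both were acetylated, in KARPAS-45 by a region with a −log10 q of 1.72. The KARPAS-45 peak also reached past the start into the gene. The other KARPAS-45 peak, of 4.25, lay beyond the far end and nearest to L3MBTL2.

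CREBBP (chromosome 16, 3725054 to 3880713, minus strand) had the strongest peak of the whole set. It lay inside the gene, about 91 kb from the start, at chr16:3789641-3790118, with 37.6 (KARPAS-45) and 6.47 (PER-117), and the summits were 3 bp apart. In KARPAS-45 it sat in a narrow H3K27ac region of 0.526 kb, and in PER-117 outside H3K27ac. A group of KARPAS-45 peaks between 54197 and 60738 bp from the start, the strongest with 22.9, had no PER-117 partner and no H3K27ac in either line. The third in strength, 12.1, lay in TRAP1, a mitochondrial chaperone gene, and had a PER-117 partner of 3.89. At the start KARPAS-45 had a weak peak of 4.40 and PER-117 none, although the start was acetylated in both. KAT6A had 2 peaks in each line, all weak. Those just beyond the upper end of its span, with 4.75 and 3.96, overlapped, with summits 375 bp apart. Both were acetylated, in KARPAS-45 by a region with a −log10 q of 0.831. The others, of 4.66 (KARPAS-45) and 4.74 (PER-117), lay inside the gene at different places.

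Counted per length of window, the 10 genes spanned a wide range. HDAC1 had 10.9 RUNX2 peaks per 100 kb of window in KARPAS-45, TLE5 9.99, SIN3A 6.60, TLE4 6.34, TLE3 4.99, TLE1 3.85, CREBBP 3.40, NCOR1 2.11, EP300 1.45 and KAT6A 1.16. In PER-117 the order was TLE5 with 5.00, SIN3A 4.40, TLE3 3.995, TLE4 2.93, CREBBP 2.43, HDAC1 2.19, TLE1 1.93, KAT6A 1.16, EP300 0.727 and NCOR1 0.423. The same 3 genes, NCOR1, EP300 and KAT6A, were lowest in both lines and below the median of all genes, which was 2.60 (KARPAS-45) and 1.26 (PER-117). The median of the 10 genes was 4.42 and 2.31. Peaks in the flanks enter these values, and 19 of the 65 KARPAS-45 and 8 of the 33 PER-117 peaks were nearest to another gene. They included 6 of 10 at HDAC1 and 4 of 6 at TLE5 in KARPAS-45. For PER-117 they included all 3 at TLE5, whose own span held no summit there. With 1 library per line there is no spread against which neighbours in these orders could be told apart, and places that rest on 1 or 2 peaks are not distinguished.

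**Figure D2:**
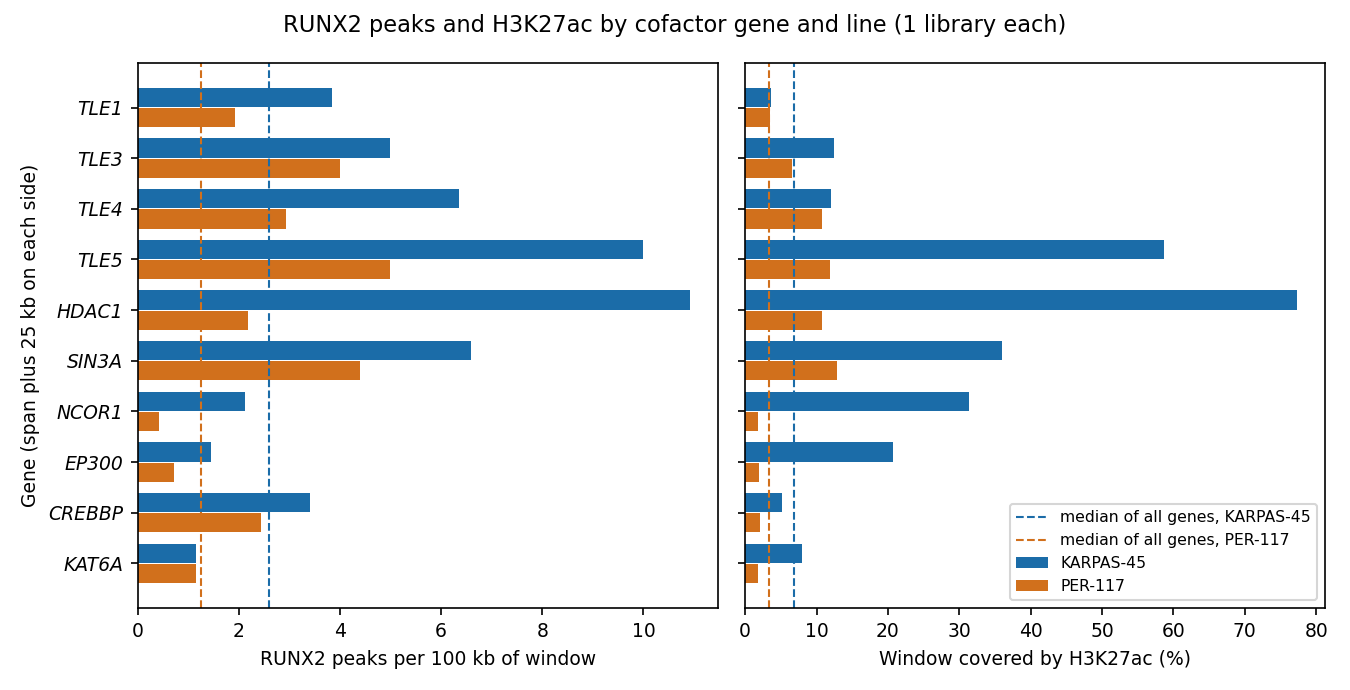
RUNX2 peaks per 100 kb of window (left) and the percent of the window covered by H3K27ac (right) for each gene, 1 bar per line, with dashed lines at the median of all 19974 protein-coding genes. HDAC1 and TLE5 lead in KARPAS-45 on both measures, at 77.4% and 58.6% covered. Of their KARPAS-45 RUNX2 peaks, 6 of 10 and 4 of 6 were nearest to another gene.

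The share of peaks found in both lines had an interval that held the value of the whole list. It was 23 of 65 for KARPAS-45 (35.4%, Wilson 95% interval 24.9 to 47.5), with 31.2% in the list, and 23 of 33 for PER-117 (69.7%, 52.7 to 82.6), with 63.6%. The intervals cover counting error only, and peaks of 1 gene are not independent. The shared peaks of KARPAS-45 had a median fold enrichment of 10.5 and the others 5.20, and in PER-117 the medians were 5.72 and 3.72. By gene, SIN3A had 6 of the 23 overlapping pairs, TLE3 and TLE4 4 each, TLE5 and CREBBP 2 each, and TLE1, HDAC1, NCOR1, EP300 and KAT6A 1 each. In 14 of the 23 the summits lay within 50 bp of each other.

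**Figure D3:**
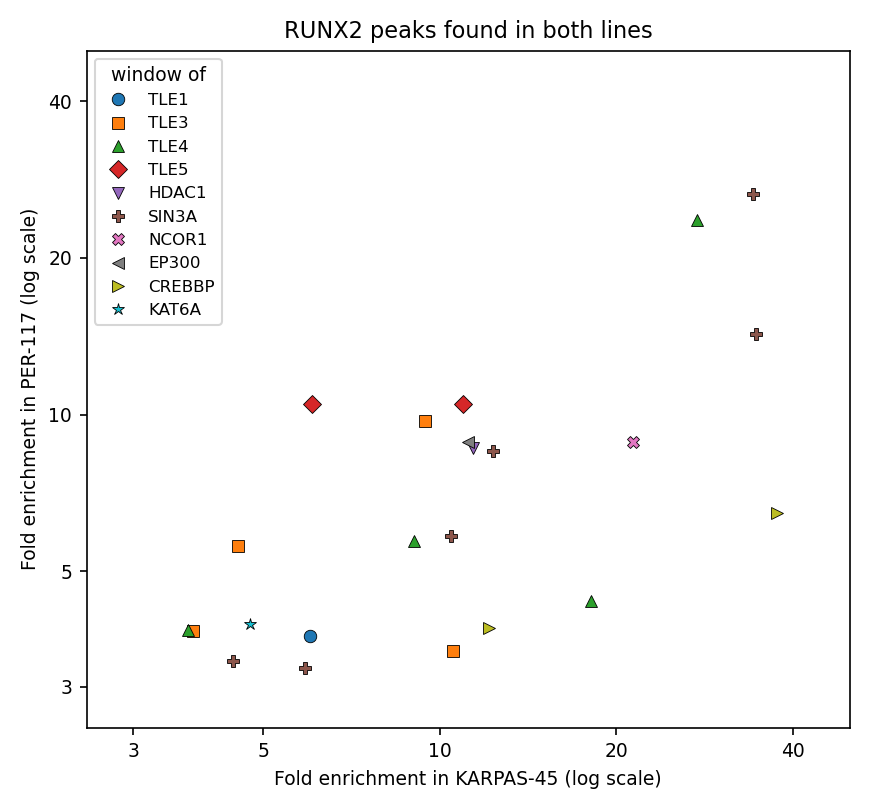
Fold enrichment in KARPAS-45 (x axis) and PER-117 (y axis), both on log scales, for the 23 RUNX2 peak pairs found in both lines, 1 symbol per pair and gene. The values rank peaks within each list and are not on a common scale. The NEIL1 site in the SIN3A window and the TLE4 intragenic site are high in both, while the CREBBP site with 37.6 in KARPAS-45 has 6.47 in PER-117.

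RUNX2 summits at these genes lay mostly in acetylated chromatin, 50 of 65 (76.9%, 65.4 to 85.5) in KARPAS-45 and 22 of 33 (66.7%, 49.6 to 80.3) in PER-117. The whole lists stood at 65.2% and 75.6%. The KARPAS-45 value was 43.1% when only its widest H3K27ac regions were kept, 5379 of 63265, as many as match PER-117 in total length. With RUNX2 peaks and H3K27ac regions both held to a −log10 q of 10 or more, the value was 40% (12 of 30). The whole-list shares under these 2 settings were not computed, so the falls are not read as particular to these genes. Of the 23 pairs found in both lines, 14 lay in H3K27ac of both lines, 6 in that of KARPAS-45 alone, 3 in neither and 0 in that of PER-117 alone. Each pair takes the strongest PER-117 peak that overlaps the KARPAS-45 peak, and both TLE5 pairs take the same one, of 10.5. At the outer TLE4 start, counted under KARPAS-45 alone, a weaker overlapping PER-117 peak of 3.79 lay inside H3K27ac of PER-117. The 3 without H3K27ac in either line were the TLE1 site 6.5 kb inside its start, the outermost of the TLE3 upstream sites and the TRAP1 site in the CREBBP window. Among the 42 peaks found in KARPAS-45 only, 30 lay in H3K27ac of KARPAS-45 and 13 in that of PER-117. The H3K27ac lists cover 167 Mb in KARPAS-45 and 76.2 Mb in PER-117. For the pairs and for these 42 peaks the whole-list counts were not computed.

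H3K27ac covered between 3.64% (TLE1) and 77.4% (HDAC1) of the windows in KARPAS-45 and between 1.76% (NCOR1) and 12.8% (SIN3A) in PER-117. The medians of the 10 genes were 16.6% and 5.05%, and those of all genes 6.89% and 3.28%. The PER-117 regions of all 10 windows summed to 82.6 kb and the KARPAS-45 regions to 324.8 kb, in lists that cover 76.2 and 167 Mb in all. At NCOR1 there were 40 regions over 74.0 kb in KARPAS-45 and 3 regions over 4.15 kb in PER-117. EP300 had 20 regions over 28.5 kb in KARPAS-45 and 1 region of 2.59 kb, at its start, in PER-117. Many of the KARPAS-45 regions had a low listed −log10 q. At a −log10 q of 2 or more, NCOR1 kept 17 regions over 53.6 kb, EP300 9 over 11.4 kb and TLE1 0 in KARPAS-45. In PER-117 they kept 2 regions over 3.75 kb, 1 over 2.59 kb and 4 over 4.70 kb. At TLE1 5.67 and 5.48 kb were covered, and at TLE4 24.6 and 21.96 kb.

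The start regions of H3K27ac are described by their deposited fold enrichment. In the KARPAS-45 list the fold enrichment of a region resembled that of the region before it (Spearman rho across regions 0.751, and 0.0517 for the PER-117 regions), so the KARPAS-45 values that follow are listed values and are not read as the strength of acetylation. In PER-117 the region at the start had the highest value of the window at 9 of 10 genes, SIN3A being the exception, and in KARPAS-45 at 0. Over all genes with H3K27ac at their outermost start, the start region had the highest value at 63.3% (PER-117) and 28.3% (KARPAS-45). The start regions of the 10 genes had fold enrichments from 4.92 (TLE1) to 19.3 (EP300) in PER-117, with a median of 11.0. In KARPAS-45 they ran from 1.20 (TLE1) to 3.80 (NCOR1), with a median of 1.85, and 6 lay below the median of their list, 2.38. For TLE1, KAT6A and EP300 the KARPAS-45 start regions had −log10 q values of 0.634, 0.831 and 1.72. Their gene-end H3K27ac in that line thus rests on calls of low listed confidence. With regions of −log10 q of 2 or more, gene-end acetylation was left at 7 (KARPAS-45) and 10 (PER-117) of the 10 genes, against 50.8% and 53.7% of all genes. At 10 or more it was left at 4 and 9, against 28.8% and 43.2% of all genes. On the KARPAS-45 list shortened to the PER-117 length it was left at 5, against 16.0% of all genes. The KARPAS-45 regions with higher values included short stretches inside a gene, such as 0.526 kb of CREBBP with 20.2 and 0.379 kb of TLE4 with 10.1.

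**Figure D4:**
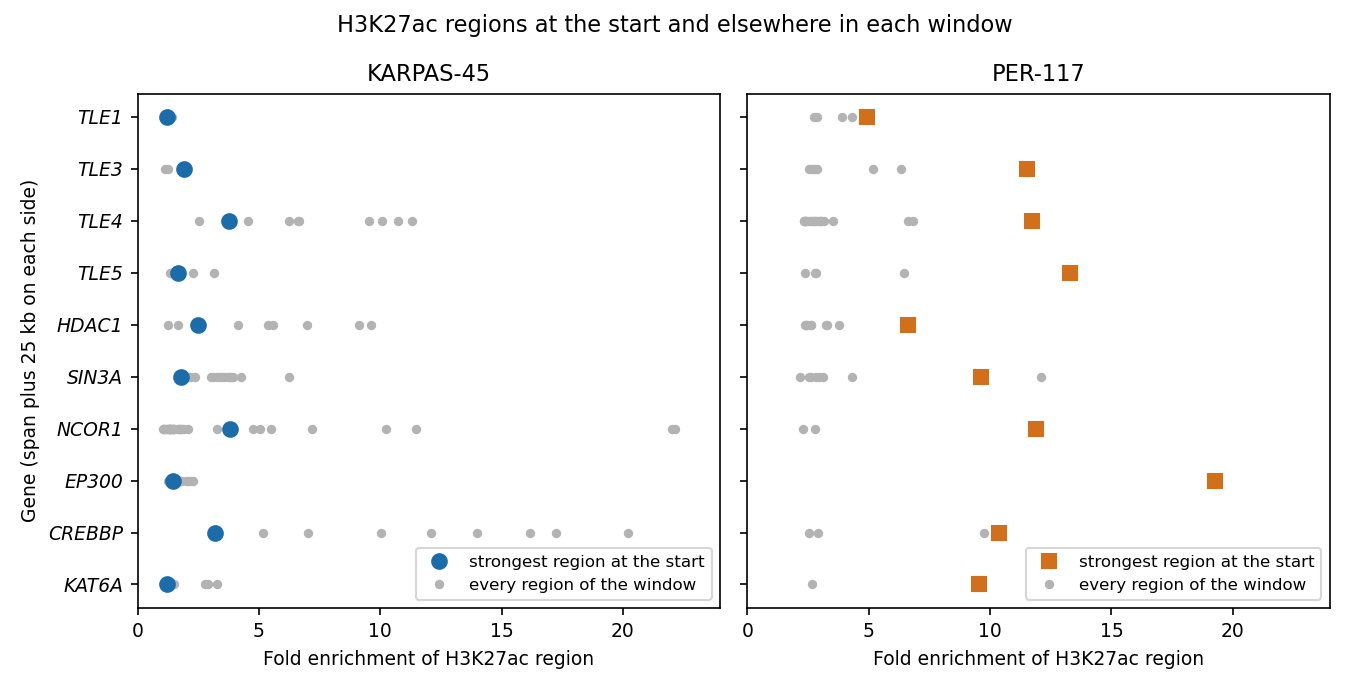
Fold enrichment of the H3K27ac regions in each window, with the strongest region at the outermost start in colour (KAT6A, upper end of its span) and every region of the window in grey, KARPAS-45 left and PER-117 right. In PER-117 the coloured symbol is the rightmost at 9 of 10 genes and in KARPAS-45 at 0, the higher regions of TLE1 and TLE3 being partly or wholly hidden behind it.

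RUNX2 calls and start acetylation were set side by side in PER-117. The 3 genes without a gene-end RUNX2 peak there, TLE5, NCOR1 and CREBBP, had start regions of 13.3, 11.9 and 10.4, inside the range of the 7 bound genes. TLE1, with the weakest start region, 4.92, was bound. By annotated starts in place of span ends, 9 of the 9 genes with a strand were bound in the first line and 6 in the second, against 50.5% and 34.4% of the 15812 genes with such an entry, and the unbound were the same 3 genes.

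A companion list of 47 other RUNX cofactor and chromatin genes gave the setting for these counts. Gene-end RUNX2 was called at 24 (KARPAS-45) and 17 (PER-117) of its 27 corepressor genes, and at 17 and 12 of its 20 coactivator genes. Of all genes 48.3% and 32.5% were bound, and of genes with an acetylated gene end 75.7% and 57.1%. Against 61.0% and 55.5% of all genes, gene-end H3K27ac was called at 27 and 26 corepressors and at 18 coactivators in each line. The 5 named here of those bound in both lines were picked by the smaller of their 2 fold enrichments, which serves to choose names and ranks nothing between the lists. They were TBL1X, a subunit of the NCOR1 complex, with 33.2 (KARPAS-45) and 14.8 (PER-117), BRPF1, the scaffold of KAT6A complexes, with 14.0 and 14.6, KAT6B, the paralog of KAT6A, with 19.7 and 12.1, the deacetylase HDAC6 with 10.3 and 11.8, and TBL1XR1 with 16.9 and 8.39. Among those bound at an end in KARPAS-45 only were the CREB coactivator CRTC1 with 6.81, GPS2, another NCOR1 complex subunit, with 4.67, and the deacetylase HDAC3 with 3.20. PRMT6, an arginine methyltransferase, was bound in PER-117 only, with 3.37. TLE2, SUV39H1, CRTC3, YAP1 and WWTR1 were bound at an end in neither line, and YAP1 and WWTR1, cofactors of the Hippo pathway, held no peak and no H3K27ac in their windows.

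The labelled cell type was checked by gene-end H3K27ac. All 8 T-lineage markers (CD3D, CD3E, CD3G, CD247, CD2, CD7, LCK and PTPRC) were acetylated in both lines, LCK lying partly in the HDAC1 window. Of 15 markers of B, myeloid, erythroid and non-blood cells 5 were acetylated for KARPAS-45 and 2 for PER-117, and the 4 myeloid and 3 erythroid ones were in neither.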

How the data were processed

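RUNX2 and H3K27ac were mapped in KARPAS-45 and PER-117, 1 library each, and 3 of the 7 samples are inputs that were not analysed here. The authors deposited 4 peak lists with 10 columns per line: a display score, fold enrichment as a linear ratio, and the −log10 of p and of q. RUNX2 lists, as deposited, also hold a summit, while the H3K27ac lists hold 100 on every line of column 10. Alignment and peak tools named, per the submitters' processing notes, are STAR 2.4.2a and MACS2, with the build hg38. What each did, with which parameters, thresholds and read numbers, is not given in the sources used here. The lowest deposited −log10 q was 0.431 and 1.01 for H3K27ac and 1.31 and 1.30 for RUNX2, in KARPAS-45 and PER-117.

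Lines of 1 RUNX2 peak were joined and the summit of highest fold enrichment kept, on chromosomes 1 to 22 and X. A RUNX2 peak belonged to a window by its summit, an H3K27ac region by any base, and overlap meant 1 bp or more. Gene-end calls needed a peak no more than 1 kb from an end of the span in a RefSeq table of GRCh38.p14. Strand and starts came from the RefSeq promoter table. Exons and introns were not resolved. Wilson 95% intervals were used for shares. Alternatives were a stricter q, the span alone, a wider gene-end window, lists of equal length or covered length, and other overlap rules, and 3 were added after the data were seen: annotated starts, the nearest gene end, and a −log10 q of 2 or more. The interval code was tested on simulated data, where 0 of 500 queries differed from a direct count. Computation used Python 3.11.15 with pandas 2.3.3, numpy 2.4.6 and scipy 1.17.1, and plots matplotlib 3.10.9.

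The genes and lists were chosen with earlier results of these data known. All 10 genes were named, with the strongest peak per line and the next 2 where a line had over 5 peaks. From the companion list up to 5 genes bound in both lines and up to 4 per line bound in that line only, in alphabetical order, were to be named, of which 1 is not reported here. TLE2, SUV39H1, CRTC3, YAP1 and WWTR1 and single peaks at neighbouring genes were named after their values were seen. Genome coordinates of KAT6A are not reported here.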

Additional observations from a re-analysis of the deposited data

How the results depend on the processing

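No paired analysis was possible because each line and antibody has a single library. Of 46 recomputed values, 26 stayed within 1.5 times the count or length, or within the Wilson interval of a share, and 20 moved beyond it. The order of the lines turned for RUNX2 peaks, bound genes and the shared share on RUNX2 lists of equal length. The shared counts were close, 15 of 26 and 16 of 33, so the turn of that share follows from the peak numbers. Over all genes the bound share turned as well, to 27.6% in KARPAS-45 against 32.5% in PER-117. For summits in H3K27ac the order turned at the stricter q, at equal covered length and, narrowly, within the gene spans. There 26 of 36 KARPAS-45 summits (72.2%) were acetylated, and 11 of 15 PER-117 summits (73.3%). With only lines of −log10 q of 10 or more, RUNX2 peaks in the windows fell to 30 in KARPAS-45 and 13 in PER-117, genes with gene-end RUNX2 to 6 and 3, genes with gene-end H3K27ac to 4 in KARPAS-45, and H3K27ac to 157.4 and 39.2 kb. The share of PER-117 peaks found in both lines was then 84.6%, and that of KARPAS-45 summits in H3K27ac 40%, below the 61.5% of PER-117. In the gene spans alone there were 36 and 15 RUNX2 peaks and 210.1 and 50.6 kb of H3K27ac in KARPAS-45 and PER-117, since the flanks were left out. With the KARPAS-45 RUNX2 list shortened to the PER-117 number, 26 peaks and 6 bound genes were left in KARPAS-45, below the 33 and 7 of PER-117, and 57.7% of KARPAS-45 and 48.5% of PER-117 peaks were shared. At equal covered length the KARPAS-45 H3K27ac list left 5 acetylated genes, 154.8 kb and 43.1% of summits inside it, below the 66.7% of PER-117. The wider gene-end window, the other overlap rules and the 3 alternatives added after the data were seen moved no value beyond these limits. The sources used here give no read depth, so absence of a peak is not absence of binding.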

Other observations

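H3K27ac regions without a RUNX2 summit made up 115 of the 143 KARPAS-45 regions and 46 of the 66 PER-117 regions in the windows. A RUNX2 summit was present in 19.6% and 30.3% of the regions, against 29.7% and 24.1% of all regions of the lists. The NCOR1 window held 38 of these regions in KARPAS-45, most of them inside the gene. In CREBBP 6 KARPAS-45 regions held none. The share of regions found in both lines was 23.1% (KARPAS-45) and 68.2% (PER-117), against 35.3% and 58.2% of the lists. These are descriptions of single libraries, and region widths were not matched.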
